A study of Mus musculus with 45 samples.

Results

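The comparison described here asks what the APP/PS1 transgene changed in the hippocampus of tau mice that had eaten a typical western diet (TWD). It sets 6 A+T+/TWD mice, which carry APP/PS1 together with the tau P301L transgene, against 6 AwT+/TWD mice, which carry tau P301L alone. The 12 mice were chosen by their labels (genotype and diet) among the 45 mice of the series, and all 15897 genes of the table were tested. The other 33 mice entered the fit only to share the estimate of the spread and, where stated, to give the same transgene contrast on standard chow (STD: 4 A+T+/STD and 6 AwT+/STD mice) or without tau (6 A+Tw/TWD and 6 AwTw/TWD mice). All are C57Bl/6J females, and every mouse is a separate animal. TWD, with 21% fat by weight, 0.15% cholesterol and 35% sucrose, was given from 7 months of age until the mice were killed at 13 months, and STD held 5% fat and no cholesterol. APP/PS1 is a single transgene with a chimeric mouse and human APP bearing the Swedish mutations and a human PS1 deletion variant, driven by the mouse prion protein promoter, and the tau transgene is driven by the CaMKII promoter, which is active in excitatory forebrain neurons. Both groups therefore share the tau transgene, the diet, the age and the sex, and differ in APP/PS1.

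APP/PS1 mice deposit β-amyloid in the hippocampus and cortex. Microglia, the resident macrophages of the brain, gather around the plaques and change their gene expression there, in part through the receptor Trem2 and its signalling partner Tyrobp. In this state they are known to raise lysosomal, lipid-handling and phagocytic genes and to lower some genes of the resting state, while astrocytes near plaques become reactive and raise the intermediate filament gene Gfap.

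The values are variance-stabilized and batch-corrected read counts on a log2-like scale, one value per gene and mouse. The file holds no read counts, so the depth of each mouse is unknown and errors rest on how far mice of a group differed. Over all genes, the medians of the 12 mice lay between 8.05 and 8.31, and Pearson's r across genes between pairs of these mice lay between 0.893 and 0.987. All 13 markers of hippocampal subfields were in the table. Prox1, which marks dentate granule cells, ranged from 9.01 to 10.23 in A+T+/TWD (median 9.64) and from 9.05 to 10.25 in AwT+/TWD (median 9.81), and Wfs1, which marks CA1, from 10.91 to 11.42 in A+T+/TWD (median 11.23) and from 10.79 to 11.86 in AwT+/TWD (median 11.24). Choroid plexus markers varied more between mice than any other list and are set out with the batches below. Differences are given throughout as the log2 difference between group means (A+T+/TWD minus AwT+/TWD) with batch as a covariate, ± its standard error, and the adjusted p is that of limma with Benjamini-Hochberg adjustment over all 15897 genes. A gene was called when its adjusted p was below 0.05. RNA came from bulk tissue, so more cells of a type and more RNA per cell cannot be told apart.

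The transgene itself was first checked. App (ENSMUSG00000022892, chr16:84949685-85173766, GRCm38), the amyloid precursor, ranged from 15.26 to 15.80 in A+T+/TWD (median 15.36) and from 14.46 to 14.70 in AwT+/TWD (median 14.62), a log2 difference of 0.88 ± 0.09, adjusted p = 1.7e-08. Prnp (ENSMUSG00000079037, chr2:131909928-131938429), the prion protein gene whose promoter drives the transgene, ranged from 14.66 to 14.95 in A+T+/TWD (median 14.78) and from 13.55 to 13.95 in AwT+/TWD (median 13.76), a difference of 1.10 ± 0.09, adjusted p = 7.2e-12. For both genes every A+T+/TWD mouse lay above every AwT+/TWD mouse. Lamr1-ps1 (ENSMUSG00000081229, chr2:131904086-131904959), a processed pseudogene of the ribosomal protein gene Rpsa, lies 4969 bases upstream of Prnp on the same strand. It ranged from 5.92 to 6.36 in A+T+/TWD (median 6.01) and from 4.06 to 4.62 in AwT+/TWD (median 4.62). All 6 AwT+/TWD mice sat at the lowest value their batch shows for this gene, as did 23 of the 24 mice without APP/PS1 and 0 of the 21 mice with it. Its difference of 1.73 ± 0.14, adjusted p = 7.2e-12 therefore depends on the transformation and is no estimate of fold. Rpsa itself differed by 0.06 ± 0.21 (adjusted p = 1.0). The 2 other genes of the table within 100 kb of Prnp, Rassf2 and the non-coding 5330413P13Rik, differed by 0.15 ± 0.10 and -0.16 ± 0.14 and were not called. Whether transcripts of the transgene were counted under these genes was not tested. Mapt, the mouse tau gene, differed by -0.03 ± 0.11 and Camk2a, the gene whose promoter drives the tau transgene, by -0.01 ± 0.14, and neither was called.

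Adding APP/PS1 to tau mice on TWD went with a rise of microglial, complement, lysosomal and reactive astrocyte genes and with almost no call in the other direction. In all, 117 genes rose (0.736% of the genes tested) and 4 fell (0.0252%). The median difference of the 117 was 0.83, the smallest was 0.38, and 37 of them exceeded 1. Across all genes the median difference was -0.03 and 41.5% lay above 0. The values of the 12 mice did not overlap between the groups for 93 genes (0.585%), 85 of them higher and 8 lower, and 72 of the 121 called genes were among them. The mean value of the 117 genes ran from 7.96 to 8.25 in the A+T+/TWD mice and from 7.05 to 7.33 in the AwT+/TWD mice, a description of genes chosen on these mice. The called genes include 2 identifiers without coordinates whose values copy those of Trem2 and Slc14a1, so they stand for 119 distinct profiles. Refitted without each of the 12 mice in turn, 80 of the 121 genes were called every time and none changed direction. The other 41 lost the call in at least 1 fit, and those named are pointed out where they are described. Those refits still shared the spread with mice outside the comparison. With only the 12 mice in the fit, 55 genes were called, all of them higher. Genes not called there include Cx3cr1, Mpeg1, Tlr2 and Ccl4, described below.

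**Figure D1:**
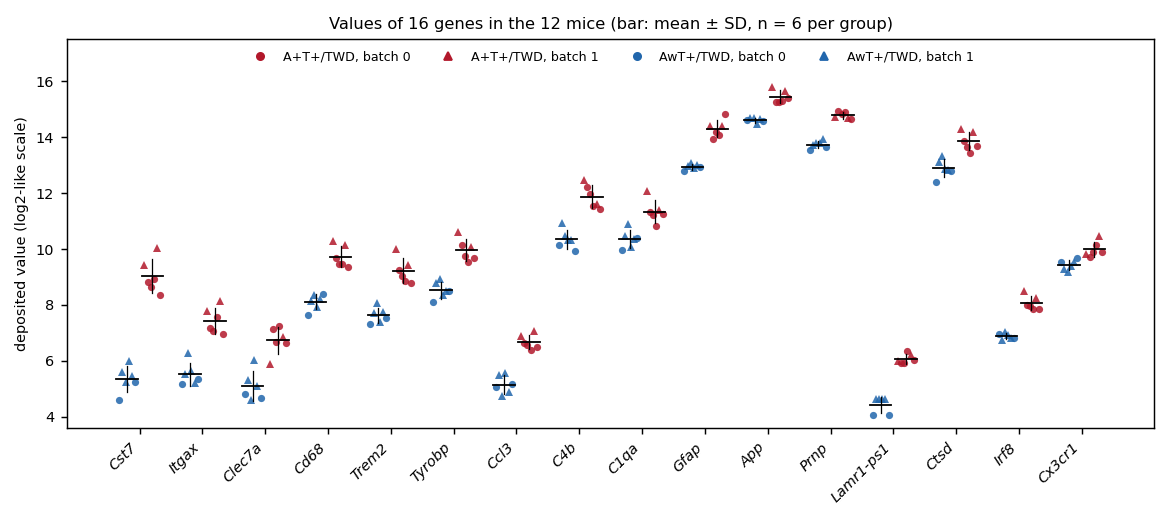
Deposited value (vertical axis, log2-like scale) of 16 called genes in each of the 12 mice, with A+T+/TWD in red and AwT+/TWD in blue, circles for batch 0 and triangles for batch 1, and bars for mean ± SD (n = 6). The groups overlap for Clec7a and C1qa, and for the other genes shown all A+T+/TWD mice lie above all AwT+/TWD mice.

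Of the 32 measured genes of the plaque-associated microglia list, 17 rose and none fell, 28 lay above 0, and the median difference was 0.73. Cst7, which encodes cystatin F, an inhibitor of cysteine proteases in endosomes and lysosomes, showed the largest difference of any called gene. Its values ranged from 8.37 to 10.05 in A+T+/TWD (median 8.88) and from 4.61 to 5.98 in AwT+/TWD (median 5.35), a difference of 3.89 ± 0.19, adjusted p = 5.4e-19. The lowest A+T+/TWD mouse stood well above the highest AwT+/TWD mouse. Itgax, the CD11c integrin chain, ranged from 6.95 to 8.13 in A+T+/TWD (median 7.37) and from 5.17 to 6.28 in AwT+/TWD (median 5.44) (2.03 ± 0.19, adjusted p = 6.3e-10), again without overlap. Clec7a, the β-glucan receptor Dectin-1, ranged from 5.90 to 7.26 in A+T+/TWD (median 6.77) and from 4.59 to 6.03 in AwT+/TWD (median 4.95) (1.73 ± 0.23, adjusted p = 2.1e-06). Here the groups touched, because 1 A+T+/TWD mouse lay below the highest AwT+/TWD mouse. Cd68, a lysosomal membrane protein of phagocytes, ranged from 9.37 to 10.27 in A+T+/TWD (median 9.57) and from 7.65 to 8.38 in AwT+/TWD (median 8.18) (1.71 ± 0.16, adjusted p = 1.0e-09). Gpnmb, a glycoprotein of phagosomes, ranged from 7.78 to 9.47 in A+T+/TWD (median 8.56) and from 6.93 to 7.77 in AwT+/TWD (median 7.32) (1.31 ± 0.21, adjusted p = 5.9e-05), also without overlap, although only just. The growth factor Igf1 (0.98 ± 0.15), the tetraspanin Cd9 (0.70 ± 0.15), the surface glycoprotein Cd52 (1.15 ± 0.15) and the inhibitory receptor Lilrb4a (1.06 ± 0.26) rose as well. Lilrb4a lies within Gm49339 (1.05 ± 0.26) on the same strand of chromosome 10 in the annotation. The latter was also called, and reads could be split between them. For Gm49339, 5 AwT+/TWD mice and 1 A+T+/TWD mouse sat at the shared lowest value of their batch, so its difference is no estimate of fold. For each of Lilrb4a and Clec7a, and of Asb10 and Ccl4 described below, 1 AwT+/TWD mouse sat there. When single mice were left out, Lilrb4a lost its call in 7 of 12 fits, Gm49339 in 9, and Cd9 in 1, that without AwT+/TWD mouse 1. Of the other 8 called members, Ccl3, Ccl4, Ccl6, Ctss, Ctsd, Ctsz, Trem2 and Tyrobp, values are given with the lists below.

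The remaining 15 members of this list were not called. Itgb5, an integrin chain, differed by 0.64 ± 0.17, adjusted p = 0.059, just outside the threshold, although its groups did not overlap. Spp1, which encodes osteopontin, differed by 0.76 ± 0.34 (adjusted p = 0.914), Lgals3, or galectin-3, by 0.67 ± 0.22 (0.298), the lipoprotein lipase gene Lpl by 0.26 ± 0.14 (1.0) and the receptor tyrosine kinase gene Axl by 0.27 ± 0.15 (1.0). Ank, Timp2, Cd83 and Fabp5 lay slightly below 0, between -0.12 and -0.02.

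The homeostatic microglia list holds genes that mark microglia at rest. Of its 14 measured members 6 rose and none fell, 13 lay above 0, and the median was 0.43. Fcrls, an Fc receptor-like protein, ranged from 9.30 to 9.96 in A+T+/TWD (median 9.46) and from 8.28 to 8.91 in AwT+/TWD (median 8.58) (1.02 ± 0.13, adjusted p = 1.5e-06). The 2 groups did not overlap for Fcrls. Siglech (0.75 ± 0.13, adjusted p = 5.0e-04), the chemokine receptor Cx3cr1 (0.58 ± 0.11, adjusted p = 0.0018), Olfml3 (0.63 ± 0.13, adjusted p = 0.0034) and the colony-stimulating factor receptor Csf1r (0.57 ± 0.12, adjusted p = 0.0044) also rose. Smaller differences were seen in P2ry12, the purinergic receptor of resting microglia, which ranged from 7.05 to 8.86 in A+T+/TWD (median 8.18) and from 6.94 to 8.45 in AwT+/TWD (median 8.20) (0.10 ± 0.28), and in Tmem119 (0.28 ± 0.16). Sall1 differed by 0.19 ± 0.15, Gpr34 by 0.31 ± 0.38 and Mertk by -0.07 ± 0.15, and none of these 5 was called. Within the batches, Cx3cr1 differed by 0.31 in batch 0 and 0.79 in batch 1.

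Activating Fc receptors and Trem2 bind immune complexes or lipids and signal through ITAM adaptors to the kinase Syk. On this list 8 of 19 measured genes rose, none fell, all 19 lay above 0, and the median was 0.53. Among the receptors, Trem2 ranged from 8.77 to 10.01 in A+T+/TWD (median 9.15) and from 7.32 to 8.06 in AwT+/TWD (median 7.62) (1.70 ± 0.19, adjusted p = 6.1e-08), and Fcgr2b, the inhibitory IgG receptor, ranged from 7.95 to 8.52 in A+T+/TWD (median 8.04) and from 6.75 to 7.51 in AwT+/TWD (median 6.84) (1.26 ± 0.14, adjusted p = 6.1e-08). Fcgr3, an activating IgG receptor, differed by 0.85 ± 0.12, adjusted p = 6.3e-06. Among the adaptors, Tyrobp, also called DAP12, ranged from 9.54 to 10.61 in A+T+/TWD (median 9.92) and from 8.09 to 8.91 in AwT+/TWD (median 8.50) (1.54 ± 0.18, adjusted p = 1.3e-07), and the Fc receptor γ chain Fcer1g differed by 0.91 ± 0.14, adjusted p = 3.7e-05. For each of these 5 genes the groups were apart. Downstream, 2 phosphatases that restrain this pathway were called, Ptpn6, or SHP-1 (1.02 ± 0.20, adjusted p = 0.0033), and Inpp5d, or SHIP1 (0.64 ± 0.16, adjusted p = 0.049), together with the exchange factor Vav1 (0.65 ± 0.14, adjusted p = 0.01). Inpp5d was the called gene nearest the threshold. Its call was lost in 11 of the 12 fits that left out a mouse, and that of Vav1 without A+T+/TWD mouse 1. The kinases themselves lay lower, with Syk at 0.26 ± 0.13, Btk at 0.35 ± 0.14 and Lyn at 0.31 ± 0.11, and none was called.

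Complement tags material for uptake by phagocytes. Of 17 measured genes 6 rose and none fell, 16 lay above 0, and the median was 0.32, or 0.49 without A+T+/TWD mouse 1. C4b, which encodes the C4 component and is made by astrocytes and microglia, ranged from 11.44 to 12.48 in A+T+/TWD (median 11.79) and from 9.95 to 10.94 in AwT+/TWD (median 10.32) (1.61 ± 0.20, adjusted p = 1.2e-06). The near-identical gene C4a differed by 0.39 ± 0.28 (adjusted p = 1.0), and reads could be shared between the pair. The 3 chains of C1q, the initiator of the classical pathway, moved together. C1qa ranged from 10.84 to 12.07 in A+T+/TWD (median 11.27) and from 9.97 to 10.89 in AwT+/TWD (median 10.39) (1.04 ± 0.20, adjusted p = 0.0018), C1qb differed by 1.04 ± 0.21, adjusted p = 0.0035 and C1qc by 1.05 ± 0.20, adjusted p = 0.0016, and for each of the 3 the groups overlapped slightly. Among the receptors, Itgb2, the shared chain of complement receptor 3, differed by 0.93 ± 0.16, adjusted p = 4.1e-04, and C3ar1, the C3a receptor, by 0.74 ± 0.18, adjusted p = 0.031, while C5ar1 stood at 0.51 ± 0.14, adjusted p = 0.088. C3ar1 was called in only 2 of the 12 fits that left out a mouse. C3, the central component, ranged from 6.26 to 7.44 in A+T+/TWD (median 6.68) and from 6.17 to 7.67 in AwT+/TWD (median 7.03) (-0.18 ± 0.29), and it was not called.

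Toll-like receptors sense microbial and damage-derived ligands. Here 5 of 12 measured genes rose and none fell, 10 lay above 0, and the median was 0.47. Ly86 (MD-1), which pairs with Cd180, ranged from 8.52 to 9.03 in A+T+/TWD (median 8.77) and from 7.58 to 7.97 in AwT+/TWD (median 7.65) (1.08 ± 0.14, adjusted p = 7.6e-07), and Cd180 differed by 1.05 ± 0.16, adjusted p = 3.1e-05. The co-receptor Cd14 ranged from 6.80 to 7.42 in A+T+/TWD (median 7.30) and from 6.09 to 6.60 in AwT+/TWD (median 6.26) (1.01 ± 0.13, adjusted p = 1.5e-06). Tlr2 (0.73 ± 0.16, adjusted p = 0.0076) and Unc93b1, the chaperone of the endosomal receptors (0.58 ± 0.14, adjusted p = 0.022), rose less. The call of Unc93b1 was lost in 7 of the 12 fits without a mouse, and that of Tlr2 without AwT+/TWD mouse 1. Myd88, the shared adaptor, stood at -0.05 ± 0.15. Of the chemokine and cytokine list 4 of 15 measured genes rose, none fell, 11 lay above 0, and the median was 0.31. Ccl3, a chemokine of activated microglia, ranged from 6.39 to 7.05 in A+T+/TWD (median 6.61) and from 4.73 to 5.56 in AwT+/TWD (median 5.12) (1.60 ± 0.15, adjusted p = 8.5e-10), and Ccl6 ranged from 6.67 to 7.69 in A+T+/TWD (median 7.35) and from 5.24 to 6.10 in AwT+/TWD (median 5.76) (1.54 ± 0.19, adjusted p = 7.4e-07), both without overlap. The chemokine Ccl4 (0.66 ± 0.15, adjusted p = 0.011) and the interleukin-10 receptor chain Il10ra (0.45 ± 0.12, adjusted p = 0.046) rose by less. Il10ra lost its call in 9 of the 12 fits without a mouse, and Ccl4 without A+T+/TWD mouse 1, AwT+/TWD mouse 5 or AwT+/TWD mouse 6. Of the ligands not called, Cxcl16 differed by 0.54 ± 0.17, Tgfb1 by 0.49 ± 0.16, Cxcl12 by -0.18 ± 0.11 and Il34, a ligand of Csf1r, by -0.00 ± 0.16. Tnf, Il1a, Il1b, Ccl2 and Ccl5 are not in the table and were not analysed here.

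The lysosome list, whose members degrade what phagocytes take up, had 9 of 32 genes that rose and none that fell. On it 29 lay above 0, and the median was 0.36. Ctss, the cysteine protease cathepsin S, ranged from 10.90 to 11.16 in A+T+/TWD (median 11.00) and from 9.96 to 10.23 in AwT+/TWD (median 10.12) (0.95 ± 0.10, adjusted p = 4.7e-08), and Laptm5, a lysosomal membrane protein of blood-lineage cells, ranged from 10.68 to 11.42 in A+T+/TWD (median 10.81) and from 9.69 to 10.36 in AwT+/TWD (median 10.04) (0.96 ± 0.14, adjusted p = 8.5e-06). Ctsd, the aspartyl protease cathepsin D, ranged from 13.44 to 14.31 in A+T+/TWD (median 13.79) and from 12.41 to 13.32 in AwT+/TWD (median 12.84) (1.03 ± 0.18, adjusted p = 3.3e-04). No A+T+/TWD mouse fell within the AwT+/TWD range for these 3. Ctsz (0.95 ± 0.19), the β-glucuronidase gene Gusb (0.63 ± 0.11), the mannosidase gene Man2b1 (0.61 ± 0.12) and the progranulin gene Grn (0.68 ± 0.13) were called as well. Widely expressed members stayed near 0, with Lamp1 at 0.11 ± 0.09, Psap at 0.02 ± 0.09, Npc1 at 0.04 ± 0.09 and Ctsb at 0.22 ± 0.12, and Hexa, with a difference of 0.46 ± 0.12, adjusted p = 0.085, lay outside the threshold.

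Antigen presentation and interferon genes gave no call. All 15 measured antigen presentation genes lay above 0 with a median of 0.51, and 6 of them had an unadjusted p below 0.05, as had 4.85% of all genes. The class II chaperone Cd74 ranged from 8.40 to 9.77 in A+T+/TWD (median 8.98) and from 5.99 to 9.27 in AwT+/TWD (median 8.07) (1.21 ± 0.49, adjusted p = 0.712), and the immunoproteasome subunit Psmb8 ranged from 6.92 to 7.82 in A+T+/TWD (median 7.39) and from 6.55 to 7.47 in AwT+/TWD (median 6.76) (0.51 ± 0.18, adjusted p = 0.452). Both overlapped widely between the groups. The class I genes H2-D1 and H2-K1 differed by 0.57 ± 0.21 and 0.56 ± 0.22. Away from that list, H2-Oa (0.51 ± 0.12, adjusted p = 0.024) and H2-Ob (0.57 ± 0.12, adjusted p = 0.0079), the chains of a class II modulator, were called. They are named after their values were seen. H2-Oa was not called in 6 of the 12 fits without a mouse, nor H2-Ob without A+T+/TWD mouse 1. Of 21 interferon-stimulated genes 18 lay above 0 with a median of 0.27. Cxcl10 had the smallest p and ranged from 5.44 to 6.27 in A+T+/TWD (median 6.00) and from 5.13 to 5.82 in AwT+/TWD (median 5.30) (0.59 ± 0.20, adjusted p = 0.365). The interferon regulatory factor genes Irf8 and Irf5, which act in myeloid cells and are on neither list, were called. Irf8 ranged from 7.85 to 8.51 in A+T+/TWD (median 7.98) and from 6.76 to 7.03 in AwT+/TWD (median 6.87) (1.24 ± 0.11, adjusted p = 1.4e-10) and Irf5 differed by 0.55 ± 0.13, adjusted p = 0.02, a call lost in 4 of the 12 fits without a mouse.

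Of the reactive astrocyte list 5 of 17 measured genes rose and none fell, 15 lay above 0, and the median was 0.50, or 0.25 without A+T+/TWD mouse 6. Gfap ranged from 13.94 to 14.83 in A+T+/TWD (median 14.30) and from 12.78 to 13.09 in AwT+/TWD (median 12.95) (1.44 ± 0.12, adjusted p = 2.8e-11), with the lowest A+T+/TWD mouse above the highest AwT+/TWD mouse. Aspg, an asparaginase, ranged from 7.10 to 7.58 in A+T+/TWD (median 7.48) and from 5.77 to 6.88 in AwT+/TWD (median 6.29) (1.13 ± 0.18, adjusted p = 6.2e-05). The protease inhibitor Serpina3n (0.74 ± 0.19, adjusted p = 0.037) and the galactosyltransferase Ggta1 (0.72 ± 0.17, adjusted p = 0.021) rose, as did C4b, which is also on the complement list. Serpina3n was not called in 7 of the 12 fits that left out a mouse, and Ggta1 in 6. Vim, the other intermediate filament of reactive astrocytes, differed by 0.59 ± 0.21, adjusted p = 0.492, and Lcn2 by 0.07 ± 0.21. None of 13 resting astrocyte genes was called. Their median was -0.14 and 3 lay above 0. The water channel gene Aqp4 differed by 0.38 ± 0.23, the glutamate transporter gene Slc1a2 by -0.15 ± 0.29 and glutamine synthetase (Glul) by -0.20 ± 0.13.

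**Figure D2:**
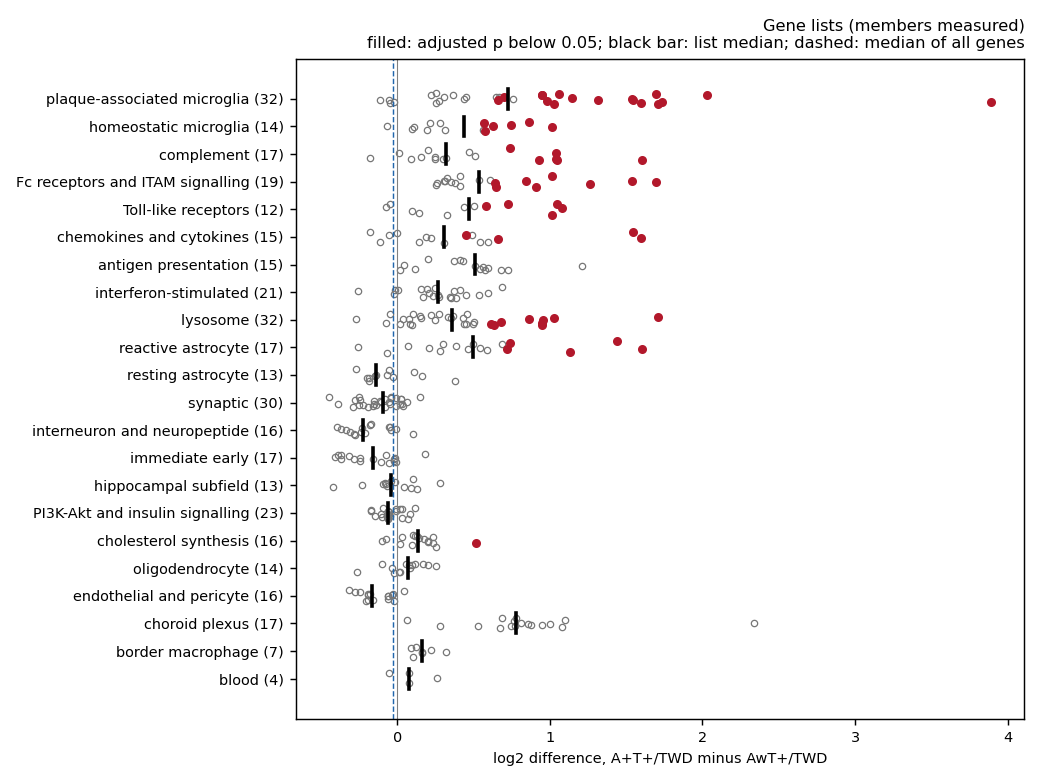
Log2 difference (horizontal axis, A+T+/TWD minus AwT+/TWD) of each measured gene in 22 gene lists, with the number measured in brackets, filled red points for called genes, black bars for list medians and a dashed line at the median of all genes, -0.03. Called genes sit in the microglial, complement, receptor, chemokine, lysosome, reactive astrocyte and cholesterol lists, and the choroid plexus list has a median of 0.78 with no call.

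No neuronal list held a called gene. Of 30 synaptic genes 7 lay above 0, with a median of -0.09. The glutamate receptor gene Gria1 had the smallest p of them and ranged from 13.50 to 13.93 in A+T+/TWD (median 13.69) and from 13.66 to 14.07 in AwT+/TWD (median 13.82) (-0.15 ± 0.09, adjusted p = 1.0), and Snap25, a vesicle fusion protein, differed by -0.14 ± 0.08. Of 16 interneuron and neuropeptide genes 1, Bdnf, lay above 0, and the median was -0.22. Lamp5 ranged from 8.85 to 9.74 in A+T+/TWD (median 9.36) and from 9.53 to 9.78 in AwT+/TWD (median 9.66) (-0.34 ± 0.11, adjusted p = 0.268) and Tac1, which encodes substance P, ranged from 6.36 to 7.07 in A+T+/TWD (median 6.53) and from 6.74 to 7.34 in AwT+/TWD (median 7.00) (-0.40 ± 0.14, adjusted p = 0.428). The somatostatin gene Sst differed by -0.28 ± 0.17 and Pvalb by -0.31 ± 0.20. Of 17 immediate early genes, which follow recent neuronal activity, 1 lay above 0, with a median of -0.16. Among them Dusp1 ranged from 7.69 to 8.57 in A+T+/TWD (median 7.91) and from 7.98 to 8.62 in AwT+/TWD (median 8.35) (-0.37 ± 0.18, adjusted p = 0.992), Arc differed by -0.28 ± 0.26 and Fos by -0.02 ± 0.27. Hippocampal subfield markers had a median of -0.04 with 5 of 13 above 0, and PI3K-Akt and insulin signalling genes one of -0.06 with 6 of 23 above 0. On the latter list Irs2 differed by -0.15 ± 0.13 and Igf1r by 0.08 ± 0.15.

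Among the remaining lists, 1 of 16 genes of the cholesterol synthesis list was called. The synthesis enzymes Sqle (0.26 ± 0.13) and Cyp51 (0.24 ± 0.13) were not called, 14 of the 16 lay above 0, and the median was 0.14. Oligodendrocyte genes had a median of 0.07 (10 of 14 above 0) and endothelial and pericyte genes one of -0.17 (1 of 16 above 0), with no call in either list. Pecam1, of endothelial junctions, differed by -0.32 ± 0.17 and Mbp, of myelin, by 0.17 ± 0.15. Border macrophage markers had 7 of 7 genes above 0 with a median of 0.16, and none was called. Of 15 markers of lymphocytes, monocytes and neutrophils only Cd79a is in the table, at 0.12 ± 0.21. The 4 globin genes had a median of 0.08, and A+T+/TWD mouse 1 had the highest mean over them of the 12 mice, 8.59.

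Beyond the lists, 69 called genes remained, and those named here were chosen after their values were seen. Some of the largest differences belong to phagocytes. Slc11a1, an iron and manganese transporter of the phagosome, ranged from 7.15 to 7.84 in A+T+/TWD (median 7.50) and from 5.96 to 6.59 in AwT+/TWD (median 6.01) (1.40 ± 0.18, adjusted p = 1.5e-06), and Lyz2, or lysozyme, ranged from 9.11 to 9.70 in A+T+/TWD (median 9.31) and from 7.25 to 8.69 in AwT+/TWD (median 8.13) (1.36 ± 0.19, adjusted p = 1.0e-05). Mpeg1, a pore-forming protein, ranged from 9.10 to 10.27 in A+T+/TWD (median 9.74) and from 8.13 to 9.17 in AwT+/TWD (median 8.55) (1.22 ± 0.19, adjusted p = 6.6e-05), with a slight overlap. Further down, the NADPH oxidase subunit Ncf1 (0.53 ± 0.13, adjusted p = 0.041) and the proton channel Hvcn1 (0.93 ± 0.13, adjusted p = 5.8e-06), which serve the oxidative burst, both rose. The groups overlapped for Ncf1, which was not called in 7 of the 12 fits without a mouse, and not for Hvcn1. Receptors for metabolites and purines that rose were Gpr84 (0.96 ± 0.14), Hcar2 (0.97 ± 0.15), P2ry6 (0.60 ± 0.14) and Adora3 (0.50 ± 0.12). From the SLAM family, whose members bind one another between blood-lineage cells, Ly9 (0.87 ± 0.13), Slamf9 (0.60 ± 0.12) and Cd84 (0.66 ± 0.16) rose. The urokinase gene Plau (0.59 ± 0.13) and its receptor gene Plaur (0.82 ± 0.14) both rose, as did the serine protease St14, or matriptase, which ranged from 6.41 to 7.02 in A+T+/TWD (median 6.57) and from 5.33 to 5.62 in AwT+/TWD (median 5.60) (1.12 ± 0.11, adjusted p = 1.0e-09) without overlap. Regulators of the actin cytoskeleton in blood-lineage cells were represented by Dock2 (0.68 ± 0.12), Dock8 (0.53 ± 0.11), Nckap1l (0.52 ± 0.10) and Fermt3 (0.62 ± 0.13). Prostaglandin and thromboxane synthesis was represented by Hpgds (0.91 ± 0.20) and Tbxas1 (0.62 ± 0.13). With 1 mouse left out, the calls of Adora3 (8 of 12 fits), P2ry6 (7) and Cd84 (7) were lost, as was that of Fermt3 without A+T+/TWD mouse 1 and that of Hpgds without A+T+/TWD mouse 4 or AwT+/TWD mouse 6. Less familiar genes among the largest were Asb10 (1.14 ± 0.16, adjusted p = 1.2e-05), Tent5c (1.11 ± 0.20, adjusted p = 6.2e-04) and the non-coding AU020206 (1.08 ± 0.14, adjusted p = 1.3e-06).

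The 4 genes that fell had adjusted p-values between 0.021 and 0.035. Onecut1, a transcription factor, ranged from 4.55 to 5.07 in A+T+/TWD (median 4.77) and from 5.10 to 5.62 in AwT+/TWD (median 5.34) (-0.57 ± 0.14, adjusted p = 0.021) and was the 1 of the 4 whose groups did not overlap. Gm12231, a processed pseudogene, ranged from 4.78 to 6.79 in A+T+/TWD (median 6.02) and from 6.35 to 7.42 in AwT+/TWD (median 6.89) (-1.04 ± 0.25, adjusted p = 0.021), with 3 A+T+/TWD mice at the lowest value of their batch for that gene. Ido2, of tryptophan catabolism, ranged from 5.46 to 5.78 in A+T+/TWD (median 5.59) and from 5.65 to 6.17 in AwT+/TWD (median 6.11) (-0.43 ± 0.11, adjusted p = 0.031), and Stmn4, a neuronal stathmin that binds tubulin, ranged from 11.23 to 11.61 in A+T+/TWD (median 11.35) and from 11.49 to 11.81 in AwT+/TWD (median 11.71) (-0.32 ± 0.08, adjusted p = 0.035). With single mice left out, Ido2 and Stmn4 each lost the call in 9 of 12 fits, Onecut1 in 5, and Gm12231 in 3, those without A+T+/TWD mouse 1, AwT+/TWD mouse 4 or AwT+/TWD mouse 6. The count of lower genes went from 4 to 1 without A+T+/TWD mouse 1, without AwT+/TWD mouse 5 or without AwT+/TWD mouse 6, and to 2 without A+T+/TWD mouse 2. At the threshold, Plxdc2 (adjusted p = 0.047) and Inpp5d (0.049) were the last genes inside it, and Rac2 (0.058, a difference of 0.94 ± 0.24) and Itgb5 (0.059) the first outside. Plxdc2 was not called in 8 of the 12 fits without a mouse.

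Promoter sequence was examined for motifs that factors of myeloid cells, lysosomal genes and interferon responses read. RefSeq promoter windows (GRCm38.p6, 250 bases before to 50 after the start) matched 84 of the 117 higher genes and were searched on both strands. GAGGAAGT, the letters bound by Spi1 (PU.1), a master regulator of myeloid cells, occurred in 13 of the 84 (15.5%), against 3.20% of all 32851 windows and 3.35% of the 11609 tested genes with a window. GAAANNGAA, the core of the interferon-stimulated response element, occurred in 8 (9.52%, against 8.56% of windows and 8.54% of tested genes), and TCACGTGA, the CLEAR element of lysosomal genes, in 2 (2.38%, against 0.974% and 2.00%), which were Ctsd and Siglech. A gene with several windows counts once when any of them holds the motif. No test was made of these shares, and a match describes letters, not binding. Of the 25 genes with the largest differences, 20 had a window and 2 held a motif, Ccl3 and Ly86, where that of Ly86 lies within the transcript. The 60 bases around the Ccl3 match are shown with those of 3 other genes, chosen after the values were seen. These have the largest differences among genes whose Spi1 letters lie wholly before a RefSeq start. Each runs 5′ to 3′ on the strand of its gene, with the motif or its reverse complement in capitals.
Ccl3 (chr11:83649383-83649442, minus strand, match starting 39 bases before the start): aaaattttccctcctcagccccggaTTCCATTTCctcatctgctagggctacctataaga
C1qc (chr4:136893076-136893135, minus strand, 195 bases before the start): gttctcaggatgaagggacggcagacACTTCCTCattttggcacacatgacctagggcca
Hpgds (chr6:65144746-65144805, minus strand, 49 bases before the start): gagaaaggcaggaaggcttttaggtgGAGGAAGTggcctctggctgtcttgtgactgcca
Cd37 (chr7:45238840-45238899, minus strand, 25 bases before the start): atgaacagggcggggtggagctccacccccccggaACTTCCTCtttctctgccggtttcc
In Hpgds the Spi1 letters read forward, and in C1qc and Cd37 they appear as the complement, as does the interferon core in Ccl3. The Hpgds stretch lies before a RefSeq start but within the gene as GENCODE M21 annotates it (chr6:65117293-65144908). Hpgds, a prostaglandin D synthase, ranged from 7.22 to 8.15 in A+T+/TWD (median 7.34) and from 6.27 to 7.04 in AwT+/TWD (median 6.58), and Cd37, a tetraspanin of leukocytes, from 7.13 to 8.33 in A+T+/TWD (median 7.52) and from 6.52 to 7.22 in AwT+/TWD (median 6.77) (0.89 ± 0.18, adjusted p = 0.0043). Spi1 itself differed by 0.50 ± 0.18 (adjusted p = 0.499) and was not called.

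The batches were unevenly spread over the groups, with 4 batch 0 and 2 batch 1 mice in A+T+/TWD and 2 and 4 in AwT+/TWD. The prefix of the mouse labels was uneven too, with 5 AM and 1 PM in A+T+/TWD and 3 and 3 in AwT+/TWD. With this prefix as a further covariate, 122 genes were called. Fitted alone, batch 0 gave 46 calls and batch 1 gave 34. All 121 called genes kept their direction within each batch, which their choice on these same mice largely fixes, and the median difference of the 117 higher genes was 0.81 in batch 0 and 0.82 in batch 1. Cst7 differed by 3.77 within batch 0 and 4.18 within batch 1, and Gfap by 1.41 within batch 0 and 1.42 within batch 1. Larger gaps between batches were seen for Gpnmb (0.72 within batch 0 and 2.05 within batch 1) and Clec7a (2.19 within batch 0 and 1.11 within batch 1).

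**Figure D3:**
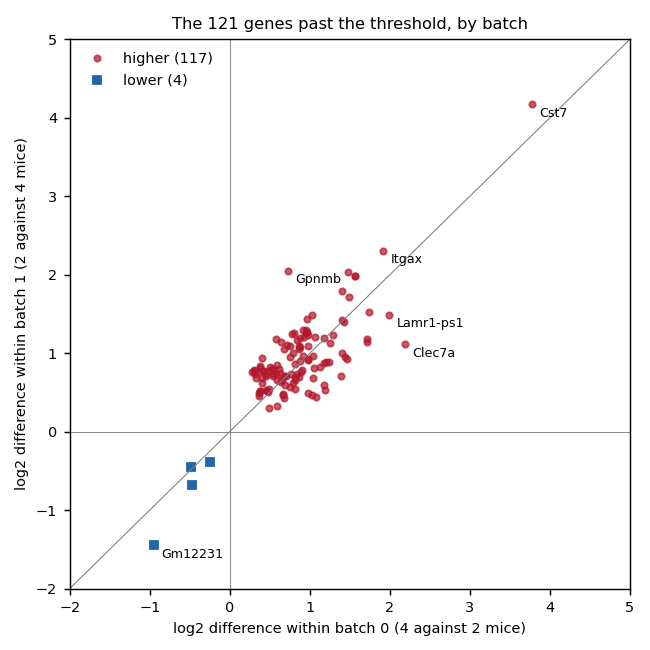
Log2 difference of the 121 called genes within batch 0 (horizontal axis, 4 against 2 mice) and within batch 1 (vertical axis, 2 against 4 mice), with higher genes as red circles, lower genes as blue squares and a line of equal values. All 117 higher genes are above 0 and all 4 lower genes below 0 on both axes, and Gpnmb and Clec7a lie away from the line on opposite sides.

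Choroid plexus markers differed more between the groups in batch 0 than in batch 1. All 17 measured markers lay above 0 with a median of 0.78 and none was called. That median was 0.43 without AwT+/TWD mouse 1. Their median difference was 2.17 within batch 0 and 0.16 within batch 1. Ttr, the transthyretin gene that choroid plexus expresses at very high level, ranged from 10.89 to 17.08 in A+T+/TWD (median 16.19) and from 7.49 to 16.97 in AwT+/TWD (median 13.83) (2.34 ± 1.74). Without AwT+/TWD mouse 1 its difference was 1.04. The mean over the 17 markers ran from 6.61 to 9.56 in A+T+/TWD and from 5.92 to 9.81 in AwT+/TWD, and 3 AwT+/TWD mice but 1 A+T+/TWD mouse had a mean below 7. With a choroid plexus score added as a covariate, 116 genes were called. List medians without and with it were 0.73 and 0.62 (plaque-associated), 0.43 and 0.45 (homeostatic) and 0.50 and 0.43 (reactive astrocyte). They were 0.51 and 0.38 for antigen presentation, 0.32 and 0.24 for complement and 0.27 and 0.20 for interferon-stimulated genes. For lysosome, border macrophage and chemokine genes they were 0.36 and 0.30, 0.16 and 0.08, and 0.31 and 0.36.

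**Figure D4:**
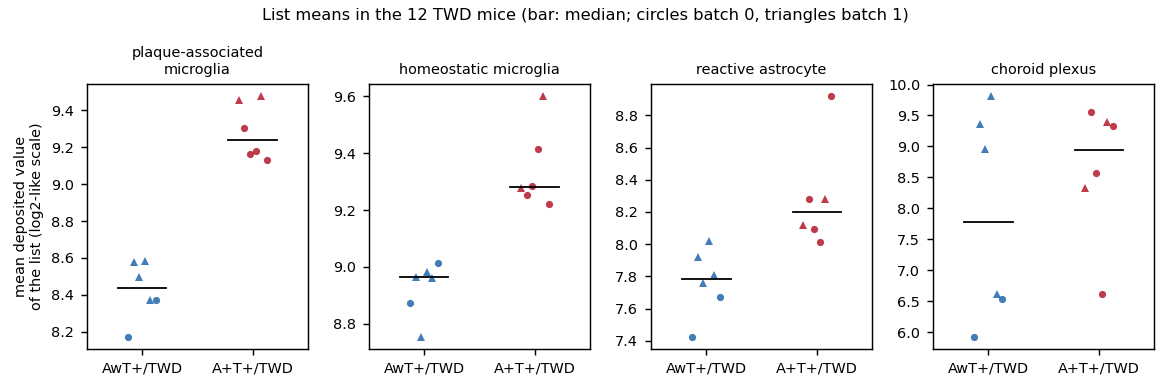
Mean deposited value (vertical axes, log2-like scale, each panel with its own range) over 4 gene lists in each of the 12 TWD mice, with circles for batch 0, triangles for batch 1 and bars for the group median. Every A+T+/TWD mouse is above every AwT+/TWD mouse in the plaque-associated and homeostatic panels, the reactive astrocyte values touch, and the choroid plexus values overlap.

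With the spread shared over all groups, the same transgene contrast in other mice gave counts of the same order. On STD, 146 genes rose (0.918%) and 5 fell (0.0315%) between A+T+/STD and AwT+/STD. On TWD without tau, 130 rose (0.818%) and 1 fell (0.00629%) between A+Tw/TWD and AwTw/TWD. No mouse is shared between these contrasts and the one described here. With only the groups compared in the fit, 55 genes were called here and 284 on STD. How close the counts on TWD and STD lay therefore depended on the fit, and the cause was not tested. Of the 121 genes called here, 89 were also called in the same direction on STD (73.6% of these genes and 58.9% of those called on STD) and 94 without tau (77.7% and 71.8%), and 83 were called in all 3. The direction matched for 120 of the 121 in each of the other contrasts. The median of the 117 higher genes was 0.83 here, 0.88 on STD and 0.79 without tau. Side by side, the difference of Cst7 was 3.89 ± 0.19 here, 4.18 ± 0.20 on STD and 4.15 ± 0.19 without tau, that of Trem2 1.70 ± 0.19, 1.93 ± 0.21 and 1.72 ± 0.19, and that of Gfap 1.44 ± 0.12, 1.60 ± 0.13 and 1.23 ± 0.12. For the plaque-associated list the median was 0.73 here, 0.99 on STD and 0.90 without tau, with 17, 19 and 18 genes called.

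**Figure D5:**
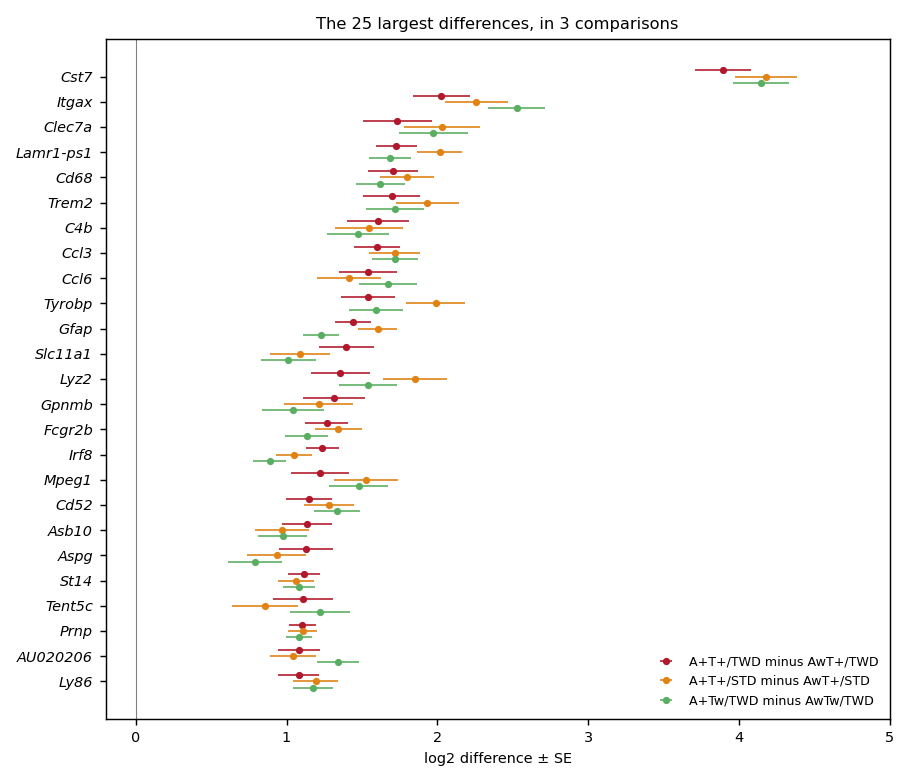
Log2 difference ± SE (horizontal axis) of the 25 genes with the largest absolute difference between A+T+/TWD and AwT+/TWD (red), with the same genes in A+T+/STD minus AwT+/STD (orange) and A+Tw/TWD minus AwTw/TWD (green). All values are above 0, and the genes were chosen on the red values.

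The differences between these contrasts were then tested themselves. For the APP/PS1 effect in tau mice on TWD minus that on STD (the diet contrast), 0 genes passed limma's threshold (0.0%), 346 had an unadjusted p below 0.05, and the smallest adjusted p was 0.883. For the effect on TWD with tau minus that without tau (the tau contrast), 0 genes passed limma's threshold (0.0%), 208 had an unadjusted p below 0.05, and the smallest adjusted p was 1.0. Those 346 and 208 of 15897 genes are fewer than the 771 (4.85%) of the comparison itself. Both lie below the 1 in 20 that chance gives. The median standard error of a single gene was 0.23 for the diet contrast and 0.21 for the tau contrast, which limits the size of a difference that could be detected. The 95% confidence interval of the diet contrast for Cst7 was -0.84 to 0.27 and for Trem2 -0.81 to 0.34, and that of the tau contrast was -0.78 to 0.27 and -0.56 to 0.51. Smallest in p for the diet contrast were Eci2, an enzyme of fatty acid oxidation (-0.54 ± 0.12), Abcb1a, the drug efflux transporter of brain endothelium (-0.54 ± 0.15), and Dynlt1f (1.46 ± 0.42). For the tau contrast they were the unnamed gene model Gm5641 (-2.52 ± 0.66), Phf11b (-0.80 ± 0.21) and Tirap, an adaptor of Toll-like receptors (0.68 ± 0.18). Of these 6 only Tirap was called in the comparison itself (0.56 ± 0.13, adjusted p = 0.021), a call lost in 5 of the 12 fits without a mouse. Its difference was 0.30 ± 0.14 on STD and -0.12 ± 0.13 without tau. For Gm5641, the difference in the comparison itself was -1.20, or -0.53 without A+T+/TWD mouse 1 and 0.25 in batch 0 alone.

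In all, 21 genes were called here and in neither of the other contrasts, among them Slc14a1 and the identifier that copies it. That count says nothing of a difference, which was not called for any of them. Hpgds differed by 0.91 ± 0.20 here, 0.13 ± 0.23 on STD and 0.57 ± 0.20 without tau, and Adora3 by 0.50 ± 0.12, 0.03 ± 0.13 and 0.21 ± 0.12. The actin-binding Parvg showed 0.48 ± 0.11, 0.28 ± 0.12 and 0.01 ± 0.11. All 4 genes that fell were among the 21, and Stmn4 showed -0.32 ± 0.08, -0.02 ± 0.09 and -0.10 ± 0.08. For Baiap2l2, 0.87 ± 0.15 here, the other 2 values were 0.46 ± 0.16 and 0.34 ± 0.15. Others of the 21 had closer values on STD. Onecut1 showed -0.57 ± 0.14, -0.53 ± 0.15 and -0.11 ± 0.14, Ggta1 0.72 ± 0.17, 0.64 ± 0.19 and 0.50 ± 0.17, and Dock8 0.53 ± 0.11, 0.45 ± 0.12 and 0.27 ± 0.11.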

How the data were processed

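Hippocampal poly(A) RNA of 45 female mice was sequenced as single reads. Per the submitters' processing notes and the study's methods, the authors trimmed reads with Trimmomatic 0.38, filtered them with Bowtie2 2.2.3, quantified transcripts with kallisto 0.44.0, removed genes with low counts, applied the variance-stabilizing transformation of DESeq2 1.22.2 and removed batch with limma 3.38.3. The deposited values are thus on a log2-like scale (1.90 to 18.08). Batch correction leaves the batch means of each gene equal, which can shrink group differences where batch and group are uneven, so batch was kept as a covariate. Read counts were not used here, and differences understate the change of genes near the lowest values.

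Groups were taken from the labels. Symbols and coordinates come from GENCODE M21 (GRCm38) and cover 15695 of 15897 genes. All genes were fitted with limma 3.58.1 in R 4.3.3 (8 groups and batch, empirical Bayes with a mean trend, two-sided, Benjamini-Hochberg, threshold 0.05), and the script was tested on simulated data. Tables and plots were made in Python 3.11.15 with pandas 2.3.3, numpy 2.4.6, scipy 1.17.1 and matplotlib 3.10.9. Promoter windows are RefSeq's (GRCm38.p6).

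Members and gene lists were chosen with earlier results of these data known. The 24 lists were described by counts and medians without a set test. The genes named are the 4 label checks, the 25 called genes with the largest absolute difference, called genes that were lower, the 4 members of each list with the smallest p, list members that were called, the 3 genes with the smallest p in each of the 2 interactions and the genes beside the threshold. Some genes that the rule names are not reported here. List members outside that rule, and genes said to be so, were chosen after their values were seen. Alternatives changed the batch term, the batches, the mice in the fit, the trend, a low-value filter, quantile normalization, copied genes, the label prefix, a choroid plexus covariate, the threshold and each mouse in turn.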

Additional observations from a re-analysis of the deposited data

Results flagged for a closer look

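In each group of 6 mice the highest and lowest value of every named gene was compared with its nearest neighbour by Dixon's test. Of 220 checks (110 genes in 2 groups) 14 stood apart from the rest of their group, and chance gives about 1 in 20.

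Among called genes, Fcgr2b was high in AwT+/TWD mouse 4 (7.51, next 6.91), St14 low in AwT+/TWD mouse 5 (5.33), AU020206 low in A+T+/TWD mouse 1 (6.80), Ido2 low in AwT+/TWD mouse 3 (5.65) and Cd14 low in A+T+/TWD mouse 4 (6.80). Fcgr2b, St14, AU020206 and Cd14 passed the threshold whichever single mouse was left out.

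A+T+/TWD mouse 1 was high in the immediate early genes Dusp1 (8.57) and Egr4 (8.66, next 8.04) and low in Gm5641 (5.77, next 8.92). AwT+/TWD mouse 3 was high in 3 globin genes, Hba-a1 (7.51), Hba-a2 (8.22) and Hbb-bt (6.74). A+T+/TWD mouse 4 was low in the choroid plexus gene Ttr (10.89, next 15.73). Pcp4 was high in A+T+/TWD mouse 2 (11.22) and Akt2 in A+T+/TWD mouse 5 (10.99). None of these genes was called.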

How the results depend on the processing

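The 121 calls (117 higher, 4 lower) became 46 (46 and 0) in batch 0 alone, 34 (32 and 2) in batch 1 alone, 55 (55 and 0) with only the 12 mice in the fit and 72 (71 and 1) among genes above the 25th percentile, and stayed between 85 and 137 under the other 8 alternatives. The lower count was 0 at a threshold of 0.01 and 7 at 0.1. Leaving out each mouse gave 95 to 115 calls, 94 to 112 higher and 1 to 6 lower. The 151 calls on STD became 60, 31, 284 and 94 under the first 4 of these settings and 96 at 0.01, with 93 to 167 on leaving out a mouse, the lowest without A+T+/STD mouse 2. Both interactions gave 0 calls under every alternative run. The cause of these changes was not tested, beyond fewer mice in the batches. No paired analysis was made, because every mouse is a separate animal and the labels pair none of them.

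Of the 48 named genes that were called, none changed sign under any alternative, 20 were called under each of them, and 37 were called whichever mouse was left out. Il10ra, Plxdc2, Inpp5d and Stmn4 each lost the call under 16 or more alternatives. Tirap and Ggta1 lost it under 10 each. Leaving out a mouse moved list medians by more than 1.5 times mainly where they lay near 0, such as synaptic (-0.14 to -0.05), hippocampal subfield (-0.08 to 0.05) and blood genes (-0.34 to 0.36). Across the alternatives, 10 of the 23 lists besides the label check had a median that moved beyond the spread of list means between mice. In batches 0 and 1 alone, the medians were 0.29 and 0.71 for the homeostatic list and 0.58 and 0.09 for the interferon list. For the plaque-associated list they were 0.92 and 0.76. The 21 named genes that changed sign were all among the 62 not called. In batch 1 alone these were Mapt 0.212, Camk2a 0.35, Glul 0.074, Irs2 0.0757, Akt2 0.17, Flt1 0.23, Tmem72 -0.0394, Lyve1 -0.0188, Hbb-bt 0.34 and Phf11b -0.15. In batch 0 alone they were Gphn 0.0673, Npas4 0.0179, Pcp4 0.00402, C1ql2 -0.0310, Mbp -0.0086, Cspg4 -0.0204, Hba-a2 -0.0935 and Gm5641 0.25. Mapt was 0.0133 with quantile normalization and 0.0288 with the choroid plexus covariate. Camk2a was 0.0645 with that covariate, 0.0031 without the batch term and 0.0019 with the label prefix. With only the 12 mice in the fit, Akt2 was 0.0042 and Hbb-bt 0.0507. Leaving out a mouse gave Mapt -0.10 to 0.055, Camk2a -0.0794 to 0.0925, Pik3cb -0.19 to 0.0235, Hba-a1 -0.20 to 0.49, Hba-a2 -0.37 to 0.30, Hbb-bt -0.41 to 0.11, Hbb-bs -0.32 to 0.42 and Phf11b -0.047 to 0.18.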
